A study of Mus musculus with 6 samples.

Results

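The genes described here are the 9 genes of MHC class II antigen presentation named H2-Aa, H2-Ab1, H2-Eb1, Cd74, Ciita, H2-DMa, H2-DMb1, H2-DMb2 and H2-Oa. They were chosen by name, and all 9 were found among the 36930 features in each table. RNA was taken from regulatory T cells (Tregs) that had been purified by FACS from the bone marrow (BM) of 3 mice with chronic myeloid leukemia (CML) and 3 naive mice, with 1 library for each mouse. All mice carried the Foxp3-DTR-GFP allele, in which the Foxp3 locus drives a diphtheria toxin receptor and GFP, and their age is given as postnatal week 8. CML mice had received an i.v. injection of syngeneic LSK cells, a marrow fraction rich in stem cells, that had been transduced with a BCR-ABL1-GFP retrovirus. The recipients were not irradiated, so they kept their own marrow, and Tregs were taken 15 days after induction. Naive mice received no leukemia. Leukemia cells of this model carry GFP, the same fluorescent protein that reports Foxp3 in the Tregs of both groups.

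MHC class II molecules carry peptides from endosomes to the surface of antigen-presenting cells, where CD4+ T cells recognize them. The alpha and beta chains pair in the endoplasmic reticulum with the invariant chain, encoded by Cd74, which fills the groove and guides the complex to endosomes. There the invariant chain is cut down to a short peptide, which the DM heterodimer exchanges for other peptides, and the DO heterodimer binds DM and restrains it. Ciita is the coactivator that switches on the class II genes. It is recruited to a conserved promoter module, made of the X and Y boxes, by the RFX, CREB and NF-Y proteins. B cells, dendritic cells, macrophages and thymic epithelium express the pathway. T cells of mice are known to make little or no class II RNA of their own, although they can take up class II protein from other cells.

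Values were read as RPKM, reads scaled to transcript length and library size, a level per length that allows genes to be compared. From the size of 1 read in each table, the CML libraries held 829181 to 7613827 estimated reads and the naive libraries 5187987 to 9751911. CML replicate 2 was the thinnest. Treg markers were abundant in every library, beside genes of other cell types that are described below. Foxp3, the transcription factor that defines Tregs, ranged from 297 to 468 RPKM. Il2ra, the high-affinity interleukin 2 receptor chain, ranged from 109 to 277 RPKM, and Cd3e, a chain of the T cell receptor complex, from 299 to 453 RPKM. Of 13923 genes tested between the groups, 24 were called, 6 higher and 18 lower in CML, and 53 with quantile normalization (23 higher, 30 lower) or with equal 75th percentiles (21 higher, 32 lower).

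Promoter stretches of 3 genes are shown because they hold the letters of the module through which Ciita acts, and because the class II genes described next lie behind them. They are RefSeq sequences of build GRCm38.p6, read on the strand of the gene, and end at the last base before an annotated exon of that gene. Capitals mark the core of the X box (AACNGATG) and of the Y box (GATTGG, or CCAATC on the other strand).
H2-Eb1: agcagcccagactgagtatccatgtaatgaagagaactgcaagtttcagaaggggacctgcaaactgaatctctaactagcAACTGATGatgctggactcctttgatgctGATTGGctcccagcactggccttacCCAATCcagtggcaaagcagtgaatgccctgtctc
H2-DMb2: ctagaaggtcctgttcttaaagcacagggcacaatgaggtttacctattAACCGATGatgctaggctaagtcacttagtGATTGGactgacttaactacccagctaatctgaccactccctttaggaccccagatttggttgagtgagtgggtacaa
H2-Aa: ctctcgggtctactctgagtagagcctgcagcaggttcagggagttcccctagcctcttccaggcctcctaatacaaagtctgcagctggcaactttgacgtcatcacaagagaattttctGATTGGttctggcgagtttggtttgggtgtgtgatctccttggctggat
The H2-Eb1 stretch is chr17:34305697-34305866 on the plus strand, the H2-DMb2 stretch chr17:34145079-34145235 on the plus strand and the H2-Aa stretch chr17:34287824-34287993 on the minus strand. In H2-Eb1 the X core starts at -89 and the Y core at -60, with 21 bases between them, and a reversed Y core starts at -35 (positions are counted back from the RefSeq start site). In H2-DMb2 the X core starts at -121 and the Y core at -91, with 22 bases between them. The same 22 bases separate the cores of H2-DMb1, which start at -92 and -62 and lie in a stretch that GENCODE counts as exon, so it is not printed. H2-Aa holds a Y core at -49 and no X core of these letters. H2-Oa, the alpha chain of DO, and H2-Ob, its beta chain, hold a Y core at -44 and -58. H2-DMa, the alpha chain of DM, has a pair of windows, of which one holds a Y core at -199. Both strands were searched over the 250 bases before each start site. The X core stood in 1.985% of the 32851 RefSeq promoter windows, the Y core in 14.56% and both in 0.25%. Windows were given for 7 of the 10 genes looked up, the 9 and H2-Ob.

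The classical chains and the invariant chain were abundant in the Treg libraries of both groups, and none differed between CML and naive mice beyond the spread of the libraries. H2-Aa, the alpha chain of the I-A molecule, was measured at 127, 130 and 66.4 RPKM in CML libraries and at 180.0, 69.6 and 103 RPKM in naive libraries (values are given in the order of replicates 1, 2, 3 throughout). H2-Ab1, the beta chain of I-A, had 154, 122 and 105 RPKM in CML and 241, 108 and 160 RPKM in naive libraries. The highest level of both chains was in naive replicate 1 and the groups overlapped. H2-Eb1, the beta chain of I-E, had 74.8, 47.0 and 75.4 RPKM in CML and 90.7, 32.6 and 63.5 RPKM in naive libraries. Cd74 had 382, 290.0 and 274 RPKM in CML and 586, 234 and 373 RPKM in naive libraries. The lowest value of H2-Eb1 and of Cd74 was in naive replicate 2 and the highest in naive replicate 1, so the naive mice spanned the CML mice for both genes. H2-Ea-ps, the alpha chain of I-E, which is a pseudogene in mice of the b haplotype, was listed at 0 in all 6 libraries.

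By mean level over the 6 libraries, Cd74 stood at rank 139 of the 36930 features, H2-Ab1 at 470, H2-Aa at 709 and H2-Eb1 at 1605. The order Cd74, H2-Ab1, H2-Aa, H2-Eb1 of the levels held in 4 of the 6 libraries, and H2-Aa changed places with H2-Ab1 in CML replicate 2 and with H2-Eb1 in CML replicate 3. Cd74 was 2.17 to 2.61 times H2-Ab1 in the 6 libraries, the steadiest of the ratios. H2-Aa was 0.646 to 1.06 times H2-Ab1, and H2-Eb1 was 0.302 to 0.716 times H2-Ab1. Cd74 and H2-Ab1 thus kept their proportion, which ranged 1.20-fold, more closely than the level of Cd74, which ranged 2.51-fold between libraries. H2-Eb1 over H2-Ab1 ranged 2.37-fold, about as much as the levels.

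In the difference of log2(RPKM + 1), CML minus naive, H2-Aa stood at -0.08 (SE 0.39, 95% interval -0.97 to 0.81) and H2-Ab1 at -0.35 (SE 0.29, -1.03 to 0.33). H2-Eb1 stood at 0.16 (SE 0.38, -0.71 to 1.03) and Cd74 at -0.25 (SE 0.32, -0.98 to 0.48). Adjusted p from limma was 0.955, 0.706, 0.9 and 0.805 in that order. The median difference of all genes tested was -0.18. These intervals hold a fold of 1.5 down and, for H2-Aa and H2-Eb1 only, a fold of 1.5 up. With 3 mice a group, differences of that size in those directions were not excluded. The sign for H2-Aa depended on the libraries used, with 0.24 without CML replicate 3 and 0.28 without naive replicate 1, and with 0.08 when libraries were weighted. H2-Eb1 was at -0.24 without naive replicate 2, and Cd74 at 0.08 without naive replicate 1.

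**Figure D1:**
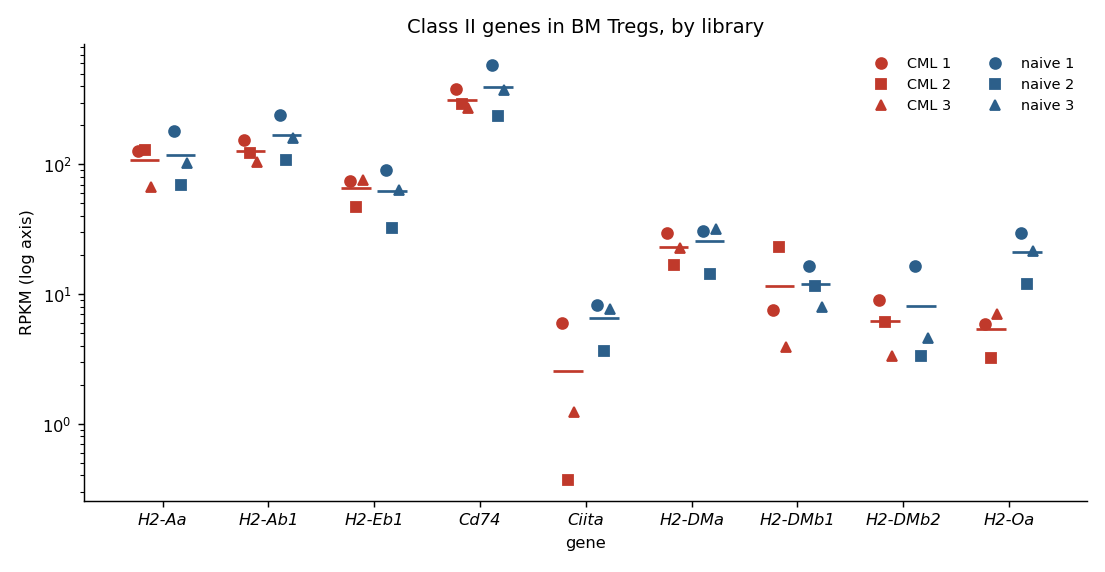
Level of each of the 9 class II genes in RPKM on a log axis, with 1 point for each library (red CML, blue naive, shape for the replicate) and a line at the group mean. The libraries of the groups overlap for every gene except H2-Oa, whose CML points lie between 3.20 and 6.97 RPKM and whose naive points lie between 12.0 and 29.4 RPKM.

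Ciita, the coactivator, had the lowest mean level of the 9 genes and lay below the naive range in 2 of 3 CML libraries. Its level was 6.005, 0.369 and 1.23 RPKM in CML and 8.18, 3.66 and 7.63 RPKM in naive libraries. CML replicate 1 lay inside the naive range, and the other two CML libraries lay below it. The value of CML replicate 2 rests on 2 estimated reads and is under the level of 3 reads in that library (0.602 RPKM). The difference in log2(RPKM + 1) was -1.37 (SE 0.68, 95% interval -2.95 to 0.20, limma adjusted p = 0.566), which did not pass the threshold. It was -0.86 without CML replicate 2. H2-Aa and Cd74 did not follow Ciita in CML replicate 2, where H2-Aa had 130 RPKM.

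DM, the peptide exchanger, is made of the H2-DMa alpha chain and a beta chain that mice encode in a pair of genes, H2-DMb1 and H2-DMb2. H2-DMa had 29.6, 16.9 and 22.8 RPKM in CML and 30.9, 14.2 and 32.0 RPKM in naive libraries, with overlapping groups. H2-DMb1 had 7.52, 23.0 and 3.90 RPKM in CML and 16.4, 11.5 and 7.96 RPKM in naive libraries. H2-DMb2 had 9.02, 6.14 and 3.34 RPKM in CML and 16.4, 3.34 and 4.57 RPKM in naive libraries. The beta chains varied more between libraries than H2-DMa, and the groups overlapped for both. None of the 3 genes was called, with differences of -0.10 (SE 0.37), -0.32 (SE 0.60) and -0.15 (SE 0.62) in log2(RPKM + 1) and limma adjusted p of 0.944, 0.874 and 0.949. The direction of all 3 changed with the library left out, and reads for the beta chains are few in the thin libraries (27 for H2-DMb1 and 7 for H2-DMb2 in CML replicate 2).

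The levels of H2-DMb1 and H2-DMb2 cannot be fully separated. Their transcripts share 93.9% of 1255 aligned bases, and 18.9% of the stretches of 76 bases (the read length) in H2-DMb1 and 20.5% in H2-DMb2 occur in another transcript. In naive replicate 1 the tables give the same value for both genes. Their sum was 16.5, 29.1 and 7.24 RPKM in CML and 32.9, 14.8 and 12.5 RPKM in naive libraries, which left the groups overlapping.

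For DO, the partner that restrains DM, the RNA of both chains had its lower values in the CML libraries. H2-Oa, its alpha chain, had 5.93, 3.20 and 6.97 RPKM in CML and 29.4, 12.0 and 21.7 RPKM in naive libraries. Every CML library lay below every naive library, which was the case for 12.2% of all genes tested. H2-Oa was the only 1 of the 9 genes with this property. Its difference was -1.76 in log2(RPKM + 1) (SE 0.44, 95% interval -2.77 to -0.74), which did not pass the adjusted threshold (limma adjusted p = 0.257). Leaving out each library in turn kept it between -2.09 and -1.48. The value of CML replicate 2 rests on 3 estimated reads, those of the other CML libraries on 49 and 17 and those of the naive libraries on 114 to 230, and the difference was -1.48 without CML replicate 2.

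H2-Ob, the beta chain of DO, is no member of the set and was looked up as a further class II gene. It was listed at 0, 1.56 and 0 RPKM in CML libraries and had 17.7, 20.3 and 9.56 RPKM in naive libraries. The naive values rest on 245, 475 and 249 estimated reads, and the CML value above 0 on 3. At the depth of CML replicate 1, 3 reads would have given 0.148 RPKM, and in CML replicate 3 0.491 RPKM. The difference in log2(RPKM + 1) was -3.56 (SE 0.56, 95% interval -4.86 to -2.27, limma adjusted p = 0.0765), just short of the threshold, and its size depends on the 1 that is added before the log. It was called without CML replicate 2 (-4.01, limma adjusted p = 0.0441) and with library weights (-3.72, adjusted p = 0.0371), and not in the other alternatives, where limma adjusted p ranged from 0.0718 to 0.464. H2-Eb2, a further beta chain gene, was listed at 0 in all CML libraries and at 0.219, 0 and 1.17 RPKM in naive libraries.

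H2-Oa and H2-Ob thus had lower values in every CML library than in any naive library, while the classical chains overlapped, though neither difference passed the adjusted threshold. Among the 9 genes this separation held for 1, a share near the 12.2% of all genes tested. H2-Oa made up 1.66%, 1.07% and 2.82% of the sum of H2-Aa, H2-Ab1 and H2-Eb1 in CML libraries and 5.76%, 5.70% and 6.64% in naive libraries. H2-DMa, the alpha chain of DM, was 4.99, 5.27 and 3.27 times H2-Oa in CML and 1.05, 1.19 and 1.48 times H2-Oa in naive libraries. The groups did not overlap in either ratio, and for H2-Oa the naive mice were close to each other although their summed class II levels ranged 2.45-fold. The ratios share the H2-Oa values and are no evidence beyond them. H2-Ob was uneven among the naive mice, at 3.46%, 9.67% and 2.93% of the same sum, and at 0%, 0.520% and 0% in CML libraries. The tested cell type markers Cd209a, Pacsin1 and Ms4a6c, described with their lists, were also lower in every CML library than in any naive library. The same held for Csf1r, C1qa and Blk, whose means were under the filter on low values. The part of these markers in the values of DO was not tested. H2-Oa overlaps BC051537, an antisense gene named here after its values were seen, and 17.1% of its stretches of 76 bases lie in that gene too. BC051537 was listed at 0 in CML and at 0.578, 1.64 and 0.740 RPKM in naive libraries. The library kit does not mark strand, so reads of the overlap cannot be assigned to one gene or the other.

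**Figure D2:**
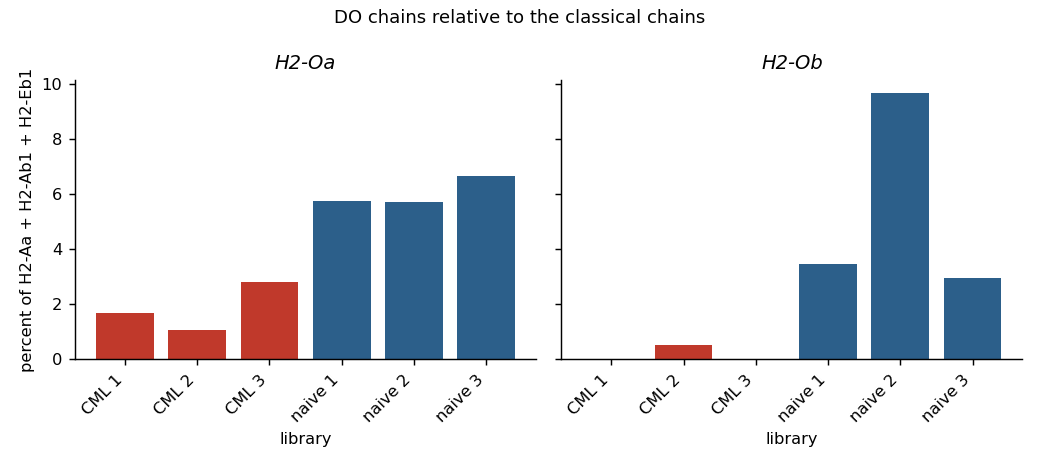
H2-Oa (left) and H2-Ob (right) as percent of the sum of H2-Aa, H2-Ab1 and H2-Eb1, with 1 bar for each library (red CML, blue naive). H2-Oa lies between 1.07% and 2.82% in CML and between 5.70% and 6.64% in naive libraries, and H2-Ob is at 0 in 2 CML libraries.

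Counted together, all 9 genes passed the filter on low values, and 0 of the 9 were called, where 0.172% of all genes tested were called. At an unadjusted limma p under 0.05 with a fold of 1.5, 1 of the 9 (H2-Oa) was lower and 0 were higher, against 5.94% and 2.61% of all genes. The difference was below 0 for 8 of the 9 and for 8946 of 13923 genes. The median difference of the 9 was -0.25 in log2(RPKM + 1), beside -0.18 for all genes, so as a group the class II genes were placed like the genes at large. The 9 levels summed to 797, 639 and 560 RPKM in CML and 1199, 489 and 773 RPKM in naive libraries. The CML mean of this sum was 0.811 times the naive mean, and 1.05 times without naive replicate 1. In bulk samples, fewer cells that express a gene and less RNA of it per cell cannot be told apart.

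**Figure D3:**
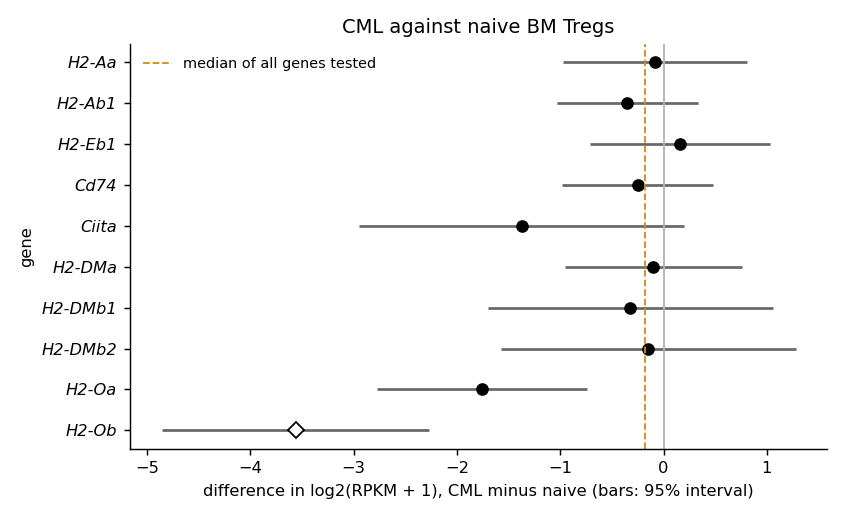
Difference in log2(RPKM + 1), CML minus naive, for the 9 class II genes (filled) and H2-Ob (open), with the 95% interval from limma and a dashed line at the median of all genes tested, -0.18. The intervals of H2-Oa and H2-Ob lie wholly below 0, without an adjusted p under 0.05, and those of the other 8 genes hold 0.

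The factors that bind the class II promoter had reads in both groups, though Rfxank was at 0 in CML replicate 2, the thinnest library. Elsewhere Rfxank had 15.4 and 24.8 RPKM in CML and 18.4 to 22.6 RPKM in naive libraries. Rfx5 was also lowest in CML replicate 2, at 4.998 RPKM, and Rfxap had 20.8 RPKM there. The list of 7 (Rfx5, Rfxap, Rfxank, Nfya, Nfyb, Nfyc and Creb1) had 0 genes called and a median difference of -0.23. The 3 with the highest level were Nfyb, the histone-fold subunit of NF-Y, at 89.3 to 136 RPKM in CML and 117 to 137 RPKM in naive libraries, Creb1, which binds the X2 element, at 74.8 to 133 and 96.6 to 155 RPKM, and Nfya, the subunit of NF-Y that reads the DNA, at 28.2 to 39.4 and 26.9 to 46.3 RPKM. Their groups overlapped. Levels of Nfyb and Creb1 were thus above those of Ciita in every library.

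Of the endosomal genes that prepare antigen and cut the invariant chain, 11 of 15 symbols were found, 0 were called and the median difference was -0.01. Ctss, cathepsin S, which makes the last cuts in the invariant chain, ranged from 205 to 264 RPKM in CML and from 229 to 275 RPKM in naive libraries. Ctsb, cathepsin B, ranged from 202 to 306 RPKM in CML and from 158 to 275 RPKM in naive libraries. Unc93b1, which escorts Toll-like receptors to endosomes, had 108, 62.5 and 95.5 RPKM in CML and 176, 73.8 and 114 RPKM in naive libraries. The order of the naive libraries in Unc93b1 was that of the classical class II chains.

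Interferon gamma induces Ciita through its receptor and the Jak kinases. Of the 6 genes listed for this input, 0 were called. Ifngr1, the ligand-binding chain of the receptor, had 673, 504 and 582 RPKM in CML and 280, 311 and 326 RPKM in naive libraries. It was higher in every CML library, as were 4.84% of all genes, with a difference of 0.93 (SE 0.16, limma adjusted p = 0.0967). Ifngr1 was called with quantile normalization (limma adjusted p = 0.0483), with equal 75th percentiles (0.0393) and with library weights (0.0371). Ifngr2, the signaling chain, was named after its values were seen and went the other way, with 8.81, 10.9 and 17.1 RPKM in CML and 24.9, 22.7 and 23.7 RPKM in naive libraries (difference -0.95, limma adjusted p = 0.369). Jak1, the kinase bound to Ifngr1, overlapped at 220 to 296 RPKM in CML and 274 to 327 RPKM in naive libraries. Ciita, the target of this input, lay inside or below its naive range in the CML libraries, in which Ifngr1 lay above its own. Neither gene was called in the main fit, and the Ciita value of CML replicate 2 rests on 2 estimated reads. A link between the levels of Ifngr1 and Ciita was not tested.

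The marker lists of cells that express class II were read in the same libraries, and 0 of the 7 B cell, 14 dendritic cell and 8 monocyte and macrophage markers tested were called. Among the 15 dendritic cell markers, 14 passed the filter and only Xcr1, a marker of cross-presenting dendritic cells, was at 0 in all libraries. Siglech, a surface receptor of plasmacytoid dendritic cells, had 144, 137 and 129 RPKM in CML and 222, 91.9 and 143 RPKM in naive libraries. Itgax, which encodes CD11c, ranged from 1.92 to 4.997 RPKM, and Flt3, a growth factor receptor of dendritic cells and progenitors, from 5.68 to 17.8 RPKM. Siglech thus lay at the level of the classical class II chains, with naive replicate 1 highest and naive replicate 2 lowest, while Itgax was low throughout.

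The dendritic cell markers summed to 861, 742 and 832 RPKM in CML and 1284, 552 and 799 RPKM in naive libraries. Irf8 was the largest part of this sum, with 288, 212 and 304 RPKM in CML and 438, 168.5 and 272 RPKM in naive libraries. Not every marker followed the sum. Cox6a2 was highest in CML replicate 2 (148 RPKM) and Zbtb46 in CML replicate 1 (15.4 RPKM). These genes are named after their values were seen. The sum of the 9 class II genes was 5.55, 4.66 and 4.34 times Siglech in CML and 5.40, 5.32 and 5.39 times Siglech in naive libraries. This ratio ranged 1.28-fold over the 6 libraries, where the class II sum ranged 2.45-fold and its ratio to Foxp3 3.08-fold. Relative to Siglech the class II sum varied less between mice than relative to Foxp3. The part of dendritic cell RNA in the class II values was not tested. Siglech overlapped between the groups at a difference of -0.07 (limma adjusted p = 0.95). Of the 14 dendritic cell markers tested, 2 had every CML library below every naive library, a share near the 12.2% of all genes tested. Both are named after their values were seen. Cd209a, a C-type lectin of dendritic cells, had 8.24, 0 and 7.32 RPKM in CML and 29.8, 10.97 and 20.6 RPKM in naive libraries (difference -2.23, limma adjusted p = 0.47). Its order of naive libraries was that of H2-Oa, but also that of Siglech, which overlapped between the groups. H2-Ob had another order. A link between Cd209a and H2-Oa was not tested. Pacsin1, an endocytic adaptor, had 50.3, 32.7 and 39.6 RPKM in CML and 67.3, 51.5 and 57.5 RPKM in naive libraries (difference -0.53, limma adjusted p = 0.505).

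Several defining genes of B cells were at or near 0, and other genes of the list were not. Of the 16 B cell markers, 6 had no reads in any library, among them Pax5 and Ebf1, transcription factors of the B lineage, and Igll1 and Vpreb1, which form the surrogate light chain. Cd79a, a signaling chain of the B cell receptor, was at 0 in 4 libraries, at 7.28 RPKM in CML replicate 2 and at 1.08 RPKM in naive replicate 3. Ms4a1, which encodes CD20, was at 2.73 RPKM in naive replicate 2 and at 0 elsewhere. Cd79b, the partner of Cd79a, had 8.79, 0 and 3.18 RPKM in CML and 8.42, 7.96 and 8.06 RPKM in naive libraries. Blnk, an adaptor of B cell receptor signaling, ranged from 8.91 to 29.6 RPKM and was highest in naive replicate 1, and Fcrla ranged from 4.03 to 19.5 RPKM, also highest there. These 3 genes are named after their values were seen. Ighm and Igkc, the immunoglobulin constant regions, were present in every library and made up most of the list, which summed to 463 to 629 RPKM in CML and 586 to 797 RPKM in naive libraries. Without them the list summed to 25.9 to 39.4 RPKM in CML and 35.2 to 59.7 RPKM in naive libraries. The class II sum, at 560 to 797 RPKM in CML and 489 to 1199 RPKM in naive libraries, lay above this reduced list. It overlapped the range of the full list. The part of B cell RNA in the class II values was not tested.

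Defining genes of macrophages and of progenitors were at low levels. Csf1r, the receptor for macrophage growth factor, stayed at or under 1.83 RPKM and C1qa, a complement gene of tissue macrophages, at or under 0.556 RPKM. Both had lower values in every CML library than in any naive library, but their means were under the filter, so neither was tested. Csf1r had 0.609, 0 and 0.447 RPKM in CML and 1.83, 1.64 and 0.83 RPKM in naive libraries. C1qa was at 0 in CML libraries and rests on 3 to 6 estimated reads in naive libraries. Lyz2, the lysozyme of myeloid cells, ranged from 5.87 to 12.6 RPKM in CML and from 4.59 to 7.14 RPKM in naive libraries. Other genes of the list were higher, and they are named after their values were seen. Cd68, an endosomal glycoprotein, had 47.4, 25.8 and 23.5 RPKM in CML and 46.6, 26.1 and 30.8 RPKM in naive libraries, with naive replicate 1 above the other naive libraries as for class II. Ly86, which had the highest mean of the list, did not follow class II. It had 23.6, 29.6 and 78.7 RPKM in CML and 26.8, 27.0 and 27.5 RPKM in naive libraries. Ms4a6c, a membrane protein of myeloid cells, had 25.9, 17.7 and 29.4 RPKM in CML and 37.3, 37.6 and 39.9 RPKM in naive libraries. It was lower in every CML library, as were 12.2% of all genes tested (difference -0.66, limma adjusted p = 0.45). The 15 macrophage markers found summed to 87.2 to 159 RPKM in CML and 110 to 127 RPKM in naive libraries, and Fcgr1 was at 0 in all. Kit and Cd34, the surface markers of stem and progenitor cells, stayed at or under 2.60 and 2.07 RPKM. Mpo, the peroxidase of granulocyte precursors, had 3.29, 37.5 and 84.6 RPKM in CML and 15.1, 9.83 and 10.4 RPKM in naive libraries. Of the 7 progenitor markers tested, 2 had all 3 CML values above all 3 naive values, as did 4.84% of all genes tested. They are Gata2 and Elane, named after their values were seen. Gata2, a transcription factor of progenitors and mast cells, had 2.003, 8.36 and 2.42 RPKM in CML and 0, 0.948 and 0 RPKM in naive libraries (limma adjusted p = 0.401). Elane, neutrophil elastase, had 3.95, 7.56 and 29.1 RPKM in CML and 2.66, 1.43 and 3.34 RPKM in naive libraries (limma adjusted p = 0.496). The progenitor list summed to 32.3, 78.7 and 148 RPKM in CML and to 27.2 to 47.0 RPKM in naive libraries. It was highest in CML replicate 3, where Mpo and Elane made up most of it. The authors report class II protein on the surface of leukemia stem cells in this model. The part of leukemia or progenitor RNA in the class II values was not tested. The Treg and T cell markers summed to 2495 to 3447 RPKM in CML and 2429 to 2788 RPKM in naive libraries.

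**Figure D4:**
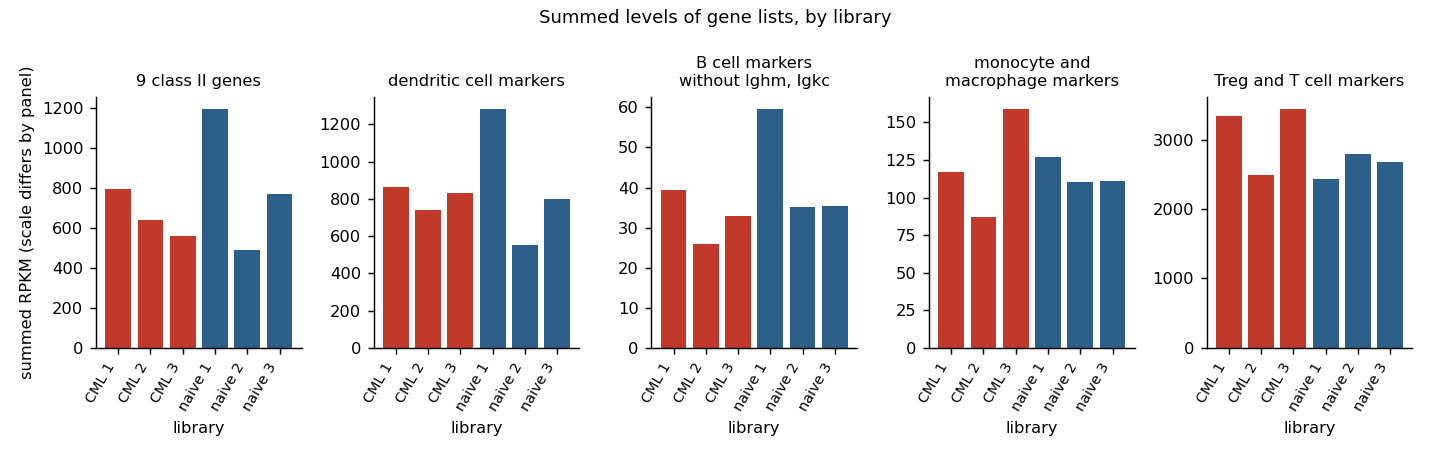
Summed RPKM of the 9 class II genes and of 4 marker lists, with 1 bar for each library (red CML, blue naive) and a scale of its own in each panel. The B cell list is drawn without Ighm and Igkc (25.9 to 59.7 RPKM over the libraries), and the stem and progenitor list is not drawn. Class II genes and dendritic cell markers are both highest in naive replicate 1 (1199 and 1284 RPKM) and lowest in naive replicate 2 (489 and 552 RPKM), and the Treg and T cell markers range only from 2429 to 3447 RPKM.

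The genes most like the class II genes across libraries were sought among all tested genes. Likeness was Pearson's r, over the 6 libraries, with the mean log2(RPKM + 1) of H2-Aa, H2-Ab1, H2-Eb1 and Cd74. The 8 genes with the highest r were Plcg2 (0.987), a phospholipase of immune receptor signaling, Gnl3 (0.986), Abhd16a (0.980), Tcf4 (0.978), a transcription factor that plasmacytoid dendritic cells require, Ifi30 (0.977), the lysosomal thiol reductase of antigen processing, Pld4 (0.976), Utp20 (0.974), a factor of ribosome assembly, and Naa25 (0.971). With 6 points that share the libraries and their depth, so many genes reach a high r that the order is a description only. Tcf4 was in the dendritic cell list and had 86.4, 49.9 and 53.8 RPKM in CML and 122, 39.0 and 66.8 RPKM in naive libraries. Ifi30 was in the antigen processing list and had 37.2, 33.9 and 27.5 RPKM in CML and 49.7, 20.9 and 33.6 RPKM in naive libraries. Pld4, an endosomal nuclease, had 101, 74.0 and 79.8 RPKM in CML and 147, 48.9 and 91.2 RPKM in naive libraries. Naive replicate 1 was the highest and naive replicate 2 the lowest library for all 8 genes, as for H2-Eb1 and Cd74. Gnl3, for example, had 38.8 RPKM in naive replicate 1 and 19.2 RPKM in naive replicate 2. The 8 genes were picked for this likeness, so the shared order follows from the choice and is no separate evidence.

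**Figure D5:**
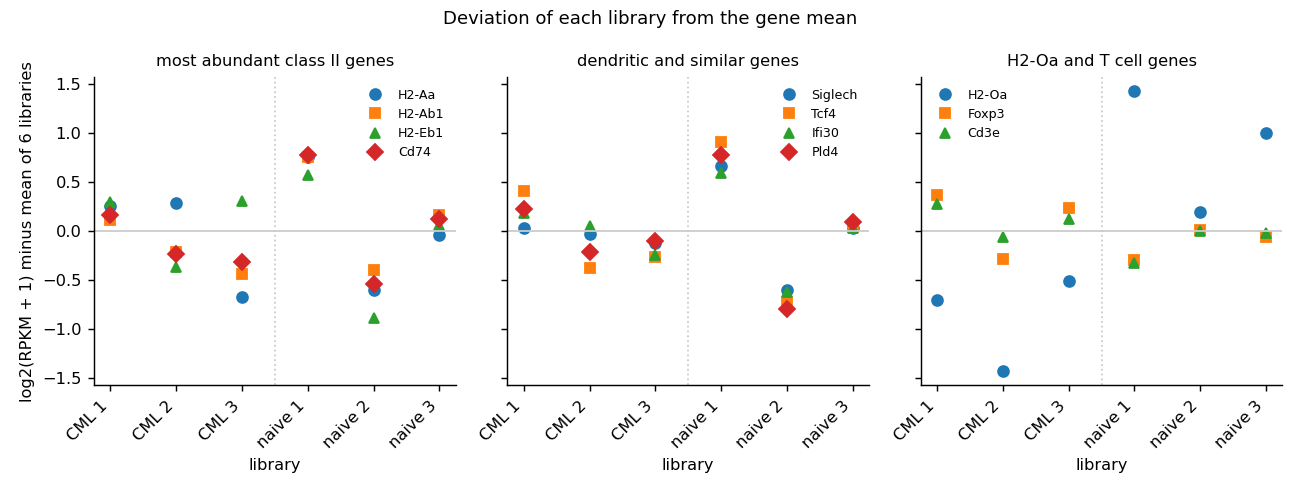
Deviation of log2(RPKM + 1) from the mean of the 6 libraries, with 1 point for each gene and library, for H2-Aa, H2-Ab1, H2-Eb1 and Cd74 (left), for Siglech, Tcf4, Ifi30 and Pld4 (middle) and for H2-Oa, Foxp3 and Cd3e (right). The left and middle genes are high in naive replicate 1 and low in naive replicate 2. For Tcf4, Ifi30 and Pld4 this follows from their choice by likeness to the left genes. Of the genes drawn, H2-Oa alone has all 3 CML libraries below all 3 naive libraries.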

How the data were processed

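RNA of FACS-purified BM Tregs from 3 CML and 3 naive Foxp3-DTR-GFP mice was measured, with group and number read off each sample's label. The authors prepared SMART-Seq v4 libraries, sequenced single reads of 76 bases, used SeqMan NGen for assembly and ArrayStar for expression values. Builds named in the submitters' notes are GRCm38 and mm10. The values deposited by the authors were read as RPKM, a unit that neither the labels nor the methods name. This reading rests on the values, which for short RNA genes fall on multiples of a fixed step after multiplication by length, and the step gave the estimated reads. A value of 0.001 marks features without reads and was set to 0, and repeated names (41) were kept apart.

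Groups were compared by limma (version 3.58.1, R 4.3.3) fitted to log2(RPKM + 1) of the 13923 genes whose mean reached 1 RPKM, with a trended prior and Benjamini-Hochberg adjustment over all of them. Genes were called at an adjusted p under 0.05 and a fold of 1.5. The tables used here hold no counts, so no count test was run. P-values measure the spread between mice of this one experiment. The limma step was tested on simulated data. Floors of 3 reads cover counting error only, since PCR copies of a molecule were not marked and cannot be removed. Gene positions and lengths came from GENCODE M21, and promoters from RefSeq. Python 3.11.15, numpy 2.4.6 and pandas 2.3.3 were used for the other steps.

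The 9 genes, the 4 pathway lists and the 5 marker lists were chosen with earlier results of these data known. Genes named from the lists are the genes called, or the 3 with the highest mean in a pathway list, and set markers of each cell type. Pathway and marker genes outside this rule are named after their values were seen. They account for values at 0 or low in a library, for the bulk of a sum, for groups that do not overlap or for genes unlike the rest of their list. Symbols not found among the feature names (H2-Ea, 4 names of the March ligase genes and Adgre1) were counted as absent. Alternatives covered the pseudocount, the filter, the scaling, the prior, library weights, the replicate block and each library left out. Results for some genes of the lists are not reported here.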

Additional observations from a re-analysis of the deposited data

How the results depend on the processing

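None of the 9 genes was called under any of the 16 alternatives. Quantile normalization moved the median difference of all genes from -0.18 to -0.01. H2-Oa kept its direction in all of them (-2.09 to -1.29, limma adjusted p 0.188 to 0.776), as did H2-Ab1 (-0.64 to -0.06) and Ciita (-2.13 to -0.66, 15 alternatives, since it is under the filter at a mean of 5). Direction changed for H2-Aa with library weights (0.08), for H2-DMa with quantile normalization (0.00) and library weights (0.06), and for H2-DMb2 with the same settings (0.10 and 0.24). With 1 library left out, H2-Aa ranged from -0.40 to 0.28, H2-Eb1 from -0.24 to 0.49, Cd74 from -0.58 to 0.08, H2-DMa from -0.46 to 0.10, H2-DMb1 from -0.95 to 0.20 and H2-DMb2 from -0.54 to 0.46. The summed class II level of CML over naive was 0.675 to 1.05 with 1 library left out.

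The 24 genes called in all became 0 with a pseudocount of 0.001, 1 with no filter, 53 with quantile normalization, 53 with equal 75th percentiles, 11 without the trend, 45 with library weights, and 0 to 29 with 1 library left out (8 without CML replicate 3, 0 without naive replicate 1, 0 without naive replicate 2 and 3 without naive replicate 3). With the replicate block it was 1. The cause was not tested, except that fewer libraries or more genes enter some of these fits. Replicate numbers belong to different mice, and same-numbered libraries did not deviate together (correlations 0.00, 0.00 and -0.02). Class II pathway genes called were 1 with either scaling, 2 with library weights and 0 to 1 with 1 library left out (H2-Ob without CML replicate 2). Marker genes called stayed at 0. Depth limits Ciita, H2-DMb2, H2-Oa and H2-Ob in CML replicate 2, where each rests on 2 to 7 estimated reads.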
